A study of Mus musculus with 10 samples.

Results

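The control libraries of a study of mouse hepatic stellate cells were described by the absolute level of each gene. They are the 5 libraries, of 10 in the series, whose label gives the treatment as control, and the 5 libraries from cells given recombinant amphiregulin (Areg) enter no value here. The labels describe hepatic stellate cells from the liver of C57BL/6 males. No other allele, no age and no sort or purity is given, the libraries are numbered 1 to 5, and the labels do not tell whether each is its own animal or culture, so the spread between them may be technical. Per the labels' protocols, cells labelled quiescent were isolated, cultured for 5 h and kept for a further 4 h in starving medium without Areg, and poly-A RNA was sequenced with Illumina TruSeq chemistry. The series title places the work in fatty liver disease.

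Hepatic stellate cells lie between the sinusoidal endothelium and the hepatocytes, where they store vitamin A as retinyl esters in lipid droplets. In the resting state they are pericyte-like cells that supply growth factors such as HGF to their neighbours and clear or bind extracellular signals. After injury, or when plated on plastic, they lose their droplets, take up growth factor and cytokine signalling, and over days become contractile, collagen-producing myofibroblasts.

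All levels are TPM, the deposited unit that divides reads by transcript length and scales every library to the same total, summed over the transcripts of a gene. Values after ± are the SD over the 5 libraries (n = 5), a rank is the place of a gene's mean among 36047 genes with 1 as the highest, and a gene counts as detected where it held at least 1 TPM in each of the 5 libraries. There is 1 group and no contrast, so no p-value is given. The order of genes is described by whether their ranges over the 5 libraries overlap.

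The libraries held 10125184 to 17566891 estimated counts. In each library 12682 to 12783 genes held at least 1 TPM, and 11754 genes, of them 11459 of 22028 protein-coding genes (52.0%), did so in all 5. The median of the detected protein-coding genes was 23.4 TPM, 7.05% of protein-coding genes had a mean of at least 100 TPM, and the 100 highest genes held 31.2% ± 0.595 of all TPM. The median coefficient of variation (SD over mean) of a detected gene was 12.9%, and 78.0% of detected genes lay under 20%. Controls 3 and 4 stood apart from controls 1, 2 and 5. No label sets them apart, and the split rests on the values of these same libraries, so counts based on it are description only. The median absolute log2 difference in TPM was 0.17 between controls 3 and 4 and 0.12 to 0.17 among controls 1, 2 and 5, against 0.19 to 0.28 for a pair with one of each. Controls 3 and 4 were both above the other libraries for 15.4% of detected genes and both below for 27.3%, and this moved with transcript length, from 30.4% above and 10.8% below where the longest transcript had at most 1000 bases to 4.73% above and 45.3% below where it had over 8000 bases. These are also the libraries with the fewest counts. The part of length or depth in any gene's difference between libraries was not tested.

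**Figure D1:**
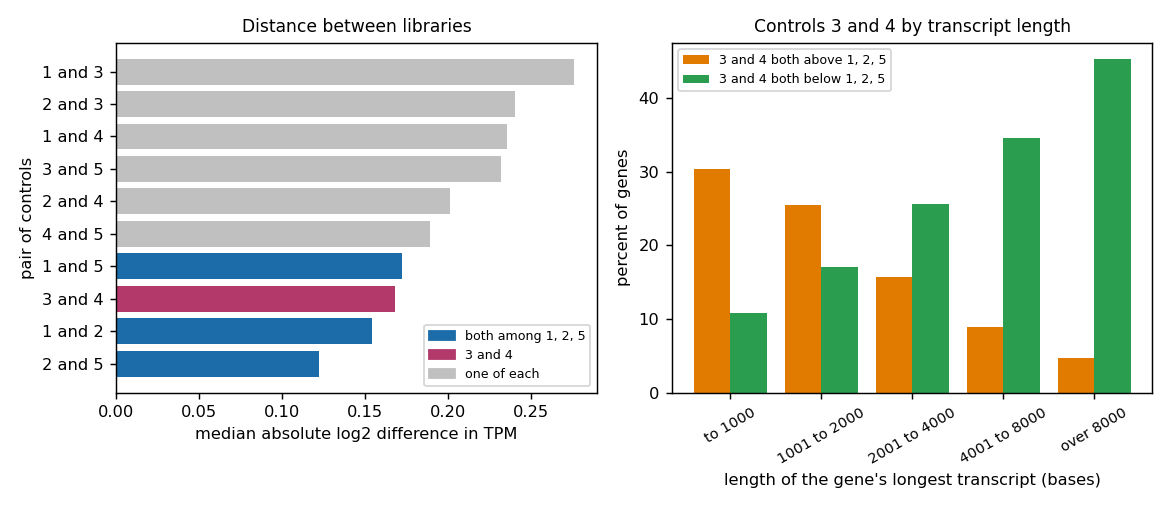
Left, the median absolute log2 difference in TPM over detected genes for each pair of control libraries; right, the percent of genes in which controls 3 and 4 both lay above (orange) or both below (green) controls 1, 2 and 5, by the length of the gene's longest transcript in bases. The pairs that mix the 2 sets have the longest bars, from 0.19 to 0.28, and the share below rises from 10.8% to 45.3% with length.

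Transcripts for iron storage, heme breakdown and the stress response stood beside stellate matrix genes at the top of the transcriptome. Of the 20 highest protein-coding genes outside the mitochondrial genome, Ftl1 and Fth1 encode the ferritin chains, Hmox1 the heme oxygenase that releases iron from heme, Sqstm1 the autophagy receptor p62, Prdx1 a peroxiredoxin, and Mt1 and Mt2 the metallothioneins. Ftl1 had 13429 ± 928 TPM, Fth1 9348 ± 1058 TPM and Hmox1 6585 ± 532 TPM. Hmox1 was 5986, 6171, 7335, 6754 and 6677 TPM in controls 1 to 5, at rank 9 of all genes, and its range did not overlap that of Sqstm1 (4890.4 ± 186 TPM). Mt1 was 2178, 2669, 3955, 4035 and 3169 TPM and Mt2 2030.4, 2543, 3123, 3636 and 3169 TPM in the same libraries. Both metallothioneins were lowest in control 1 and highest in control 4.

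Other genes among the 20 highest were the stellate matrix genes Dcn (5389.6 ± 91.7 TPM) and Ecm1 (4412 ± 451 TPM), the chemokine gene Cxcl1 (5501 ± 669 TPM), the class I antigen genes B2m (7516 ± 559.9 TPM) and H2-K1 (4049.5 ± 435 TPM, 2258 TPM in coding transcripts alone), and Apoe and Procr, which encode apolipoprotein E and the endothelial protein C receptor. Eef1a1 and Tpt1, a translation factor and a growth-associated protein, are made by most cells. Eef1a1 was the steadiest of the 20, at 6769, 6634, 6761, 6731 and 6732 TPM in controls 1 to 5.

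Further entries among the 20 rest on few transcripts or on a gene family. Olfr1033, an olfactory receptor gene, had the highest value of all, 28322 ± 5671 TPM, and 99.997% of it was assigned to a single annotated transcript of 316 bases, for which the effective length was 144 to 159 bases. Grip2, which encodes a glutamate receptor scaffold, was 389.9, 304, 7421, 5495 and 1057 TPM in controls 1 to 5, so controls 3 and 4 were far above the rest, and all but a trace lay in 1 transcript annotated for nonsense-mediated decay. In coding transcripts alone Grip2 was 0 TPM. Without controls 3 and 4 the mean of Grip2 was 584 TPM against 2933 TPM with them. Mup19 (4819 ± 688 TPM) belongs to the major urinary proteins, a family of near-identical genes made by hepatocytes, between which reads are shared by estimation, so its value is uncertain.

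The 5 genes given as stellate markers, Lrat, Cygb, Egfr, Hgf and Reln, were detected in all 5 control libraries, and their levels ranged over more than a decade. Lrat (ENSMUSG00000028003.6, chromosome 3, 82892579 to 82903973, GRCm38), the enzyme that esterifies retinol for storage, was 16.0, 14.5, 13.1, 11.6 and 15.5 TPM in controls 1 to 5. It was lowest in control 4 and highest in control 1, with a mean of 14.1 ± 1.82 TPM from 408 to 847 estimated counts, and took rank 7300, so 79.7% of all genes lay below it. Against the detected protein-coding genes alone, whose median was 23.4 TPM, Lrat was in the lower part in all 5 libraries. Cygb, the globin cytoglobin (chromosome 11, 116645595 to 116654313), was 24.1, 21.7, 26.4, 23.0 and 21.6 TPM, with control 3 the highest and a mean of 23.4 ± 1.99 TPM at rank 5843. Egfr, the receptor of EGF and Areg (chromosome 11, 16752203 to 16918158), was 59.4, 61.2, 57.1, 56.5 and 55.4 TPM, and its mean of 57.9 ± 2.35 TPM took rank 2931 with the smallest relative spread of the 5. Egfr exceeded Lrat in 5 of 5 libraries, by 3.58 to 4.89 times.

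Hgf and Reln stood far higher. Hgf, the hepatocyte growth factor gene (chromosome 5, 16553495 to 16620152), was 346, 309, 229, 248 and 296 TPM in controls 1 to 5, with a mean of 286 ± 47.3 TPM at rank 494. The lowest values were those of controls 3 and 4. Reln, which encodes the secreted glycoprotein reelin (chromosome 5, 21884454 to 22344702), was 485, 388, 376, 385 and 387 TPM, so control 1 lay above 4 libraries that were close together, and its mean of 404 ± 45.5 TPM took rank 355. Reln exceeded Lrat by 25.0 to 33.3 times across the 5 libraries.

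The level of a gene sums transcripts that may not all code for the protein. Lrat and Cygb each had 1 annotated transcript. Of the Reln level, 34.8% and 31.0% lay in the full-length coding transcripts Reln-207 and Reln-201, and 24.9% in Reln-205, a noncoding transcript of 891 bases. Of the Egfr level, 63.9% lay in Egfr-201, the coding transcript of 10208 bases, with a range of 52.6 to 71.3% over the libraries, and 18.3% in the shorter coding transcript Egfr-202. For Hgf, the 3 coding transcripts Hgf-204, Hgf-203 and Hgf-201 held 48.1, 22.4 and 20.2%.

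The promoters of the lowest and the highest of the 5 markers, Lrat and Reln, differ in their sequence, which is shown to set the markers' levels beside it. The 250 bases before each RefSeq start are printed 5′ to 3′ on the strand of the gene, from the RefSeq promoter table on GRCm38.p6. Capitals mark TATAA, the core of a TATA box, where it lies 45 to 16 bases before the start.
Lrat, chr3:82903975-82904224, minus strand: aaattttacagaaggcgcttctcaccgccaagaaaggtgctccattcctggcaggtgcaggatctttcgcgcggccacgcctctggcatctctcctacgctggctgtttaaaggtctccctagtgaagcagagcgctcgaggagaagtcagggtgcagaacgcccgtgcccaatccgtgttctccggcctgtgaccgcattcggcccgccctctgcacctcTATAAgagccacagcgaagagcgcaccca
Reln, chr5:22344706-22344955, minus strand: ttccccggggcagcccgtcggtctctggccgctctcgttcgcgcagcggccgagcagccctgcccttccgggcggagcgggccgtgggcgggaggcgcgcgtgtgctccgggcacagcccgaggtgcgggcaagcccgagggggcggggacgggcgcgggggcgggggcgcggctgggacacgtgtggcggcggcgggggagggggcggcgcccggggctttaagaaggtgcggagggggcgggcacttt
The Lrat sequence holds TATAA with its first base 29 bases before the start, and the Reln window holds none. Over the whole 300-base windows of that table, which run to 50 bases after the start, the ratio of observed to expected CG dinucleotides was 0.777 for Lrat and 1.006 for Reln, against a median of 0.588 over 20150 starts of the 16522 protein-coding genes matched by symbol. Of all these starts 4.34% held TATAA on the gene's strand at 45 to 16 bases before the start. This share was 8.73% for genes under 0.1 TPM, 1.86% for genes of 10 to 100 TPM and 14.8% (12 of 81 starts) for genes over 1000 TPM, so it was not ordered along the level. In the stellate identity list 3 of 29 starts held it, from 25 of the 34 genes. A match of letters is a description and no binding was measured.

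Of 34 stellate identity genes, a list that includes the 5 markers, 33 were detected (97.1%), against 52.0% of all protein-coding genes. Their median was 48.0 TPM, 23 of the 34 lay above the median of detected genes, and 13 had a mean of at least 100 TPM. This list was chosen with earlier results of these data known, so its share is a description and no test of identity. The list was led by Dcn, the proteoglycan decorin, at 5315, 5418, 5278, 5435 and 5502 TPM in controls 1 to 5, and Ecm1, a secreted matrix protein that restrains TGF-beta activation, at 4332, 3913, 4957, 4789.8 and 4067 TPM. Dcn lay above Ecm1 in 5 of 5 libraries with no overlap. Ednrb, the endothelin B receptor, followed at 1558, 1450.1, 1220.0, 1259 and 1396 TPM, then Steap4, a metalloreductase, at 685, 671, 572, 653 and 650.2 TPM. These 4 and Reln were separated from each other with no overlapping ranges. Markers of endothelial and other liver cells were present in the same libraries. The part of their RNA in the levels of the listed genes, Gata4 included, was not tested.

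Lower in the list stood Rgs5, a regulator of G-protein signalling typical of pericytes (334 ± 46.0 TPM), and Cxcl12, a chemokine of stromal cells (271 ± 15.9 TPM). Colec11 and Colec10, soluble lectins of the complement system, were 196 ± 11.1 and 65.1 ± 9.84 TPM. Sod3, the extracellular superoxide dismutase, was 181 ± 9.73 TPM. Nes, the intermediate filament gene nestin, was 161 ± 23.9 TPM and Prelp, a small leucine-rich proteoglycan gene, 150.0 ± 11.4 TPM. Bmp10 and Gdf2, whose products BMP10 and BMP9 circulate and act on endothelial ALK1, were 82.3 ± 7.57 and 15.1 ± 1.02 TPM. Hgf and Cxcl12 overlapped, as did Nes with both Sod3 and Prelp.

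Among the transcription factors of the list, Gata4, which holds stellate cells in the quiescent state, was 121 ± 11.2 TPM, Tcf21 40.9 ± 6.04 TPM, Lhx2 17.5 ± 1.74 TPM and Hand2 6.47 ± 0.505 TPM. Gata4, Tcf21 and Lhx2 did not overlap, in that order. The classical stellate markers were lower than the matrix genes of the list. Des, the filament gene desmin, was 25.9 ± 2.37 TPM and Ngfr, the low-affinity neurotrophin receptor, 25.4 ± 2.39 TPM. Des, Ngfr, Pdgfra, Cygb and Pdgfrb overlapped each with the next, so their order is not fixed by these libraries.

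Gfap, the glial filament gene that is often used to mark stellate cells, was the 1 member that was not detected, at 0.0396, 0.0444, 0.0646, 0.416 and 0.0919 TPM in controls 1 to 5. It rested on 1 to 7 estimated counts per library, and control 4 was the highest, without which the mean was 0.0601 TPM against 0.131 TPM. Among 33 detected members controls 3 and 4 were both below the other libraries for 11 and both above for 5. Over all detected genes these shares were 27.3 and 15.4%, and they moved with transcript length, whose part in the counts for this list was not tested. Control 1 was the highest library for 15 of 33, where it was the highest for 35.0% of all detected genes.

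**Figure D2:**
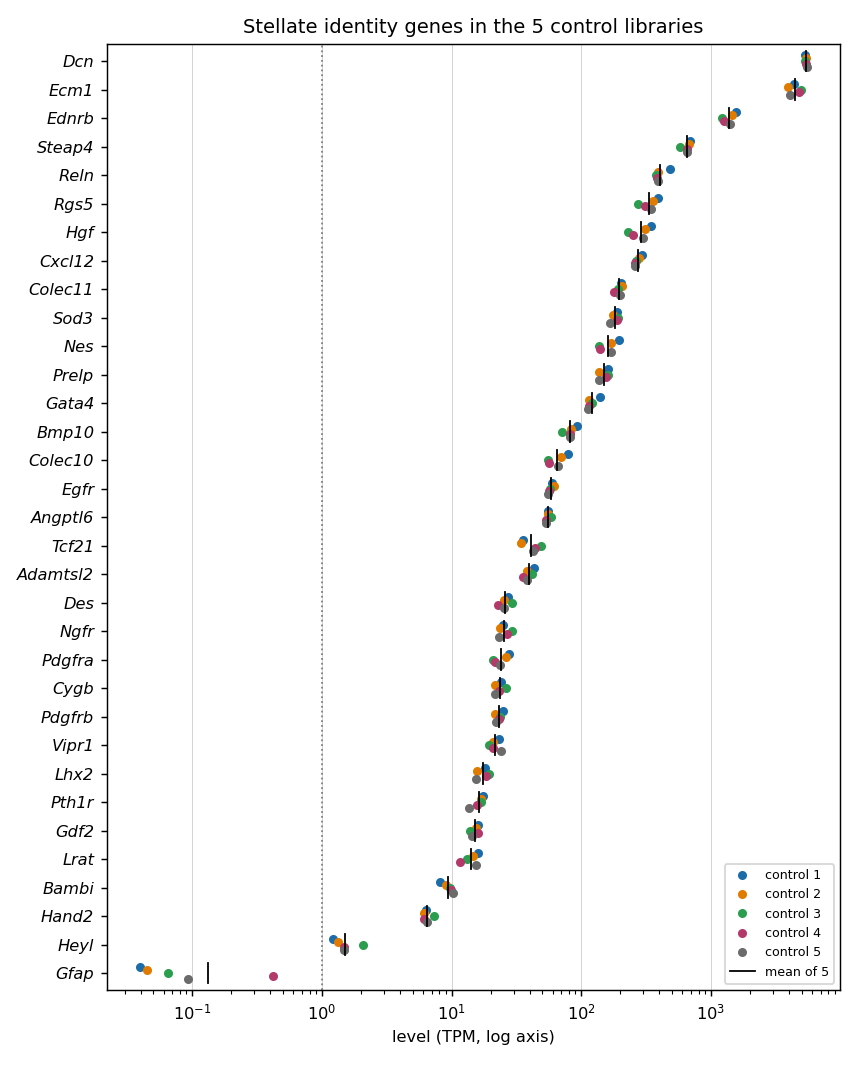
Level in TPM (log axis) of 33 of the 34 stellate identity genes in each control library (coloured points) with the mean of 5 (black line), ordered by the mean; the dotted line is 1 TPM. Dcn and Ecm1 lie above 1000 TPM and Lrat at 11.6 to 16.0 TPM, and Gfap alone lies to the left of the dotted line.

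Genes for the uptake, storage and use of retinoids were mostly present at modest levels. Of 33 such genes 28 were detected (84.8%, against 52.0% of protein-coding genes), with a median of 14.1 TPM. Plin2, which coats lipid droplets, led at 676, 632, 669, 636 and 615 TPM in controls 1 to 5 and varied little. It was followed without overlap by Lpl, lipoprotein lipase (154 ± 16.1 TPM), which overlapped Pnpla2, the triglyceride lipase ATGL that also cleaves retinyl esters (137 ± 12.9 TPM, 59.5 TPM in coding transcripts alone), and Bco1, which splits beta-carotene (137 ± 9.64 TPM). Rbp4, the plasma carrier of retinol, was 115 ± 14.6 TPM and Dhrs3, which reduces retinaldehyde back to retinol, 98.7 ± 8.85 TPM. Rbp4 is made by hepatocytes too, whose transcripts were present in these libraries, and their part in its level was not tested. The members that were not detected in every library were Aldh1a2, Stra6, Bco2, Rxrg and Crabp1, with values of 0 to 2.59 TPM, the highest of them Stra6 in control 4.

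Receptor tyrosine kinases are the cell-surface receptors through which growth factors such as EGF, PDGF, FGF, VEGF and stem cell factor act. Of 54 genes of this class 28 were detected (51.9%, against 52.0% of protein-coding genes), 20 had a mean of at least 10 TPM, and 4 of at least 100 TPM. The highest was Kit, the receptor of stem cell factor, at 233, 207, 197, 199.7 and 188 TPM in controls 1 to 5. Every Kit value lay above every value of Axl, the receptor of GAS6 (130.4 ± 12.5 TPM), and Kit exceeded Egfr by 3.38 to 3.91 times. Fgfr2 (118 ± 12.8 TPM), Fgfr1 (104 ± 8.28 TPM) and the collagen receptor gene Ddr2 (98.7 ± 11.9 TPM) came next, each overlapping its neighbour. Fgfr2 was above Fgfr1 in 5 of 5 libraries, by 1.07 to 1.27 times, although their ranges overlapped.

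Egfr was the seventh in this order, behind Flt4, the VEGF-C receptor (83.5 ± 8.32 TPM), from which its range was separate, and level with Tie1 (55.3 ± 4.49 TPM), an endothelial receptor with which it overlapped. Every Egfr value lay above every value of the PDGF, VEGF-A and insulin receptor genes. Pairs of genes were not tested, since with 5 libraries a two-sided exact paired test cannot reach 0.05. The PDGF receptor genes, which carry the main growth signal of activated stellate cells, were 27.8, 26.1, 20.9, 21.4 and 23.7 TPM for Pdgfra and 24.95, 21.6, 23.4, 23.0 and 21.9 TPM for Pdgfrb in controls 1 to 5. Pdgfra was the higher of the pair in 3 of 5 libraries, with a ratio of 0.890 to 1.21, so they did not differ beyond their spread.

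Ryk, a Wnt receptor (50.4 ± 4.33 TPM), and Mertk, a receptor for the uptake of dying cells (43.2 ± 4.48 TPM), preceded Ephb4 (32.1 ± 2.46 TPM), from which Mertk did not overlap. Csf1r, the macrophage growth factor receptor, was 27.1 ± 3.89 TPM. Flt1, Kdr and Tek, the receptors of VEGF-A and the angiopoietins, were 22.6 ± 3.55, 17.0 ± 1.91 and 18.8 ± 2.57 TPM, Insr, the insulin receptor, 21.8 ± 1.70 TPM and Igf1r 10.5 ± 1.59 TPM. Met, the receptor of HGF, was only 4.94, 3.64, 4.03, 4.48 and 4.29 TPM in controls 1 to 5, and Hgf exceeded it by 55.3 to 84.9 times. Epha6, Epha8, Ros1 and Ltk had 0 counts in all 5 libraries, and 3 counts, the limit that 0 allows by counting error alone, would be 0.0405 to 0.0650 TPM for Ros1, 0.0782 to 0.125 TPM for Epha6, 0.0647 to 0.104 TPM for Epha8 and 0.101 to 0.162 TPM for Ltk.

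Several of these receptors are typical of other liver cells, Flt4, Tie1, Flt1, Kdr and Tek of endothelium and Csf1r, Axl and Mertk of macrophages. Markers of both cell types were present in the same libraries (17 of 17 endothelial markers detected, summed level 4955 to 5568 TPM, and 15 of 17 macrophage markers, 1047 to 1170 TPM). The part of these cells' RNA in each receptor's level, that of Kit and Egfr included, was not tested. In bulk RNA, fewer cells of a type and less RNA per cell cannot be told apart. Control 1 had the highest value for 18 of the 20 receptors with a mean of at least 10 TPM, against 35.0% of all detected genes.

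**Figure D3:**
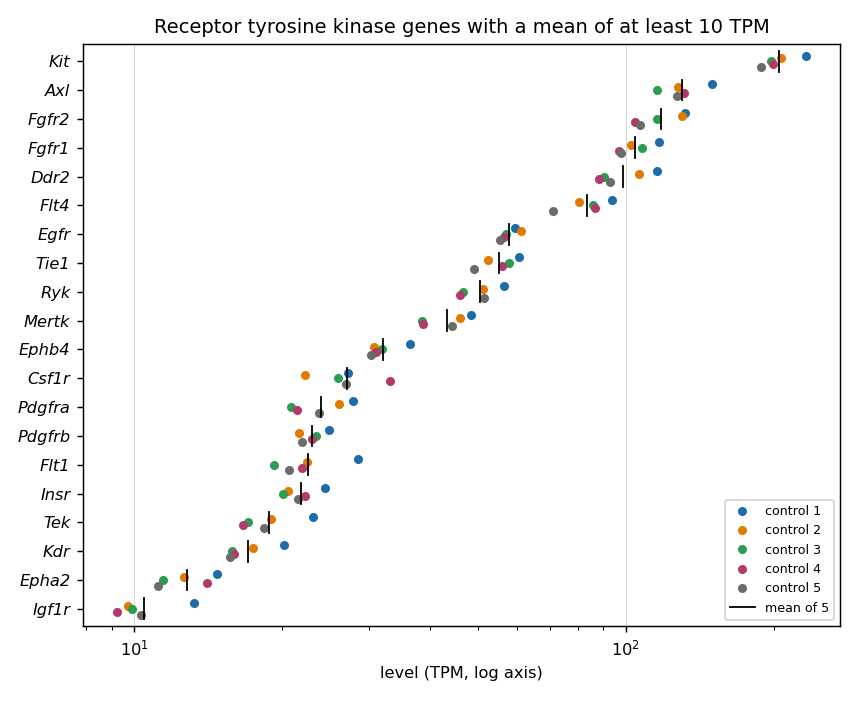
Level in TPM (log axis) of the 20 receptor tyrosine kinase genes with a mean of at least 10 TPM in each control library, with the mean of 5. Kit lies to the right of all others at 188 to 233 TPM, Egfr is the seventh at 55.4 to 61.2 TPM, and the points of control 1 (blue) are mostly the rightmost.

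Receptors of the TGF-beta family, which drive matrix production, were led by the coreceptors. Of 14 genes 11 were detected (78.6%, against 52.0% of protein-coding genes). Eng, endoglin, was 271, 249, 280.0, 303 and 237 TPM in controls 1 to 5 and Tgfbr3, betaglycan, 121 ± 9.31 TPM, with no overlap between them or with the next gene. The signalling receptors Bmpr2 (57.6 ± 9.23 TPM), Acvr1 (53.4 ± 5.69 TPM), Tgfbr2 (36.1 ± 2.33 TPM) and Tgfbr1 (33.8 ± 6.25 TPM) were lower. Eng is also one of the endothelial markers, and the part of endothelial RNA in its level was not tested.

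Of 28 cytokine receptor genes 25 were detected (89.3%, against 52.0% of protein-coding genes), with a median of 49.6 TPM. Il6st, the shared signal chain gp130 of the interleukin-6 family, was 685, 631, 504, 567 and 562 TPM in controls 1 to 5. Il6ra, the chain that binds interleukin-6 itself, was 4.56, 3.14, 3.60, 4.74 and 3.13 TPM. The ratio of Il6st to Il6ra was 120 to 201 over the libraries. The other receptor chains that pair with gp130 were higher than Il6ra, with Osmr (oncostatin M) at 114 ± 8.93 TPM, Il11ra1 (interleukin-11) at 52.4 ± 5.58 TPM and Lifr (LIF) at 43.7 ± 5.75 TPM. Tnfrsf1a, the TNF receptor, was 499 ± 45.4 TPM, Il4ra, the shared chain for interleukins 4 and 13, 411 ± 20.4 TPM (only 102 TPM in coding transcripts alone), Ifnar2 of the type I interferon receptor 236 ± 8.05 TPM, Tnfrsf11b, the decoy receptor osteoprotegerin, 203 ± 10.5 TPM and Il1r1, the interleukin-1 receptor, 139 ± 14.5 TPM. Il1r2, Il1rl1 (the interleukin-33 receptor) and Il18r1 were not detected, with values of 0.122 to 1.00 TPM.

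Of 40 G-protein-coupled receptor genes 26 were detected (65.0%, against 52.0% of protein-coding genes), and the list was led by receptors for vasoactive lipids and peptides. The part of endothelial RNA in the levels of these receptors was not tested. Ednrb exceeded Ednra, the endothelin A receptor (85.8 ± 4.21 TPM), by 14.3 to 17.1 times. The sphingosine 1-phosphate receptor genes S1pr3 and S1pr1 were 370.2 ± 16.5 and 238 ± 19.0 TPM with no overlap, F2r, the thrombin receptor, 148 ± 10.5 TPM and Lpar6, a lysophosphatidic acid receptor, 95.6 ± 3.82 TPM. Agtr1a, the angiotensin receptor that contracts stellate cells, was 38.1 ± 2.03 TPM. Both cannabinoid receptors were low, with Cnr2 at 8.19 ± 1.02 TPM and Cnr1 not detected (0.130 TPM).

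Of 64 secreted growth factor genes 46 were detected (71.9%, against 52.0% of protein-coding genes), with a median of 8.54 TPM. Csf1, the macrophage growth factor, was 1019, 958, 956, 971 and 941 TPM in controls 1 to 5 and varied little. Inhbb and Inhba, the activin B and A subunits, were 488 ± 40.0 and 226 ± 37.7 TPM, and Inhbb was 1.94 to 2.61 times Inhba. Vegfa, the vascular growth factor, was 349 ± 13.3 TPM and overlapped Hgf.

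Tgfb1, the main profibrotic factor, was 266, 225, 294, 280.2 and 248 TPM in controls 1 to 5. It exceeded Tgfb2 (8.17 ± 1.06 TPM) by 24.7 to 38.1 times, and Tgfb3 was 2.40 ± 0.184 TPM. Pros1, protein S, a ligand of the Axl family, was 246 ± 21.6 TPM, while Gas6, the other ligand, was 5.05 ± 0.249 TPM. Among EGF receptor ligand genes Ereg was 241, 214, 161, 198 and 194 TPM, Tgfa 71.0 ± 4.34 TPM, Hbegf 37.8 ± 4.61 TPM and Areg itself 19.4 ± 2.59 TPM, in untreated cells. The lowest Ereg value lay above the highest value of Tgfa, and the lowest of Tgfa above the highest of Hbegf. Pdgfa was 44.6 ± 1.83 TPM, Pdgfb 2.32 ± 0.779 TPM, and Kitl, the ligand of Kit, 31.8 ± 3.60 TPM.

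Cytokine and chemokine transcripts were abundant in the control libraries. Macrophage and endothelial markers were present in the same libraries, and the part of those cells' RNA in the cytokine levels was not tested. Of 43 genes 34 were detected (79.1%, against 52.0% of protein-coding genes), with a median of 47.4 TPM. Of the 43, 18 had a mean of at least 100 TPM, as did 7.05% of protein-coding genes. Cxcl1, which attracts neutrophils, was 5003, 6294, 4665, 5586 and 5956 TPM in controls 1 to 5 at rank 12. Ccl2, which attracts monocytes, was 1594, 1989, 2626, 2727 and 1963 TPM and Cxcl2, a further neutrophil attractant, 1029, 1318, 1638, 1796 and 1329 TPM. Ccl2 and Cxcl2 were lowest in control 1 and highest in control 4, and their ranges overlapped.

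Il33, an alarmin held in the nucleus, was 631, 666, 609.7, 652 and 637 TPM in controls 1 to 5 and overlapped Ccl7 (623 ± 44.3 TPM). Il1rn, the interleukin-1 receptor antagonist, was 463 ± 28.8 TPM, above Il1a (83.4 ± 7.57 TPM) and Il1b (28.6 ± 3.06 TPM) with no overlap. In the interleukin-6 family Il11 led at 392 ± 49.9 TPM, before Lif at 220.2 ± 14.1 TPM and Il6 at 75.0, 84.6, 66.0, 76.8 and 83.8 TPM in controls 1 to 5. These 3 did not overlap. Tnf was 27.0 ± 1.87 TPM, and Osm, a product of myeloid cells, was not detected (0.0739 TPM). Of 34 detected members 11 were higher in both controls 3 and 4 than in the other libraries and 2 were lower in both. The shares were 15.4 and 27.3% of all detected genes. They were 30.4 and 10.8% of genes whose longest transcript had at most 1000 bases. The part of transcript length in the counts for cytokines and chemokines was not tested.

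The Cxcl1 promoter is shown because this chemokine was the highest of all secreted signal genes counted here. Capitals mark GGAATTTCC, a form of the NF-kappaB motif, which was searched in the 300-base window on both strands.
Cxcl1, chr5:90890995-90891244, plus strand: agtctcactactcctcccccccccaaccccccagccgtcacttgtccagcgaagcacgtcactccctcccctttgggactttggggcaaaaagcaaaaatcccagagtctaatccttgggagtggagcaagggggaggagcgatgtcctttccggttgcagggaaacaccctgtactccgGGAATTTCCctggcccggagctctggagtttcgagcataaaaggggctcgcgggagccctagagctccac
The motif begins 70 bases before the start. It was found in 4 of 32 starts of cytokine and chemokine genes (12.5%), that of Cxcl1 included, and in 0.352% of all starts. The 32 starts belong to 28 of the 43 listed genes, so a gene can add several starts and others have none. TATAA, as defined above, was found in 9 of 32 starts of these genes (28.1%), against 4.34% of all. The genes with it were Cxcl3, Il11, Il33, Il1a, Il1b, Tnf, Ccl8, Il12b and Ccl20, whose values ran from 0 TPM for Ccl20 in 4 libraries to 666 TPM for Il33, so genes with TATAA lay at both ends of the order. Family members share ancestry, so the starts are not independent of each other.

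**Figure D4:**
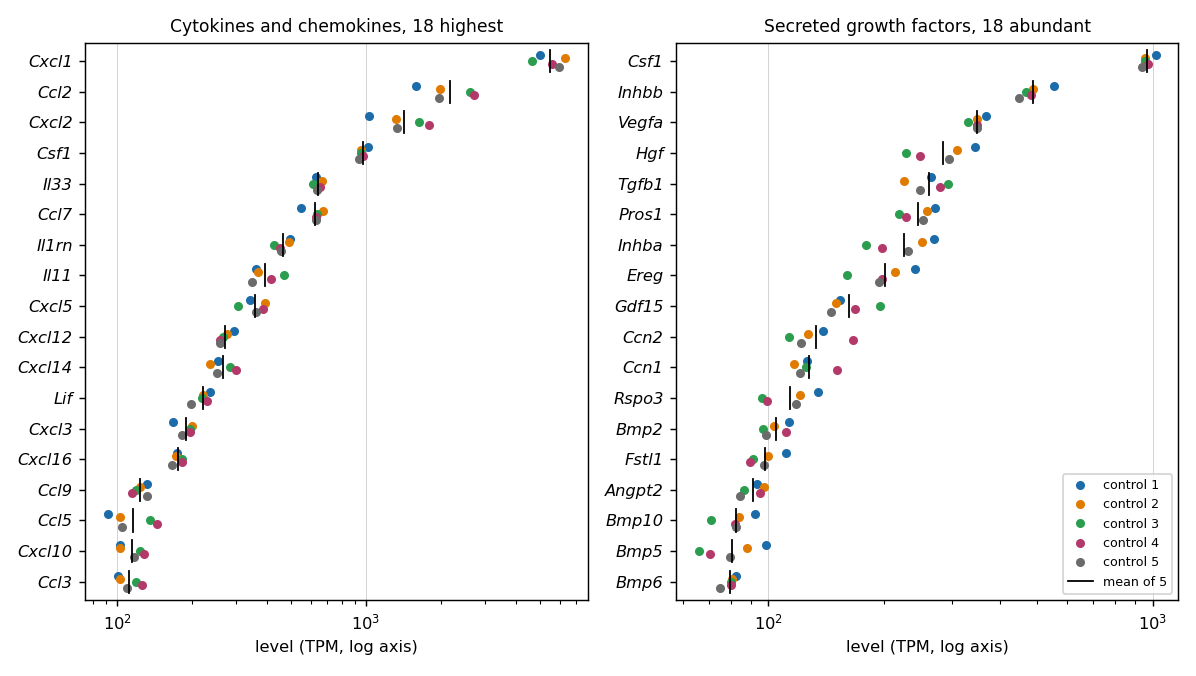
Level in TPM (log axis) of the 18 highest cytokine and chemokine genes (left) and 18 abundant secreted growth factor genes (right) in each control library, with the mean of 5. Cxcl1, Ccl2 and Cxcl2 have means above 1000 TPM, and controls 3 (green) and 4 (pink) lie to the right for Ccl2 and Cxcl2 and to the left for Hgf.

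Collagen genes were led by those of basement membrane, with the fibril collagens of scar tissue below them. Of 44 genes 18 were detected (40.9%, below the 52.0% of all protein-coding genes), with a median of 1.11 TPM, and the 3 highest held 82.3% of the summed level. Col4a1 was 760.1, 688, 672, 746 and 677 TPM in controls 1 to 5, Col4a2 367 ± 39.6 TPM and Col14a1, which binds fibrils, 301 ± 41.4 TPM. Col4a1 did not overlap the rest. The fibril collagen genes were lower, with Col3a1 at 102, 97.3, 53.3, 58.0 and 63.5 TPM, Col1a2 at 27.3 ± 2.91 TPM and Col1a1 at 11.1, 10.1, 9.42, 9.80 and 7.23 TPM. Col4a1 exceeded Col1a1 by 67.9 to 93.7 times. Endothelial cells also make type IV collagen, and the part of their RNA in the level of Col4a1 and Col4a2 was not tested.

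Of 50 genes for matrix glycoproteins and proteoglycans 39 were detected (78.0%, against 52.0% of protein-coding genes). After Dcn and Ecm1 came Bgn, biglycan, at 1507 ± 75.3 TPM, then Tnc, tenascin C, a matrix protein of injury, at 546 ± 53.2 TPM, Sparc at 493 ± 25.03 TPM and Tgfbi at 342 ± 26.2 TPM. The first 4 did not overlap each other. Fn1, fibronectin, was 218 ± 18.1 TPM, Lamc1, a laminin chain, 195 ± 19.1 TPM and Lum, lumican, 64.1 ± 4.33 TPM.

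Lysosomal cathepsins led the proteases, of which, with their inhibitors, 33 of 36 were detected (91.7%, against 52.0% of protein-coding genes). Ctsb, Ctsl and Ctsd were 2611 ± 56.4, 1568 ± 85.4 and 1161 ± 34.0 TPM and did not overlap. Adamts1, a protease of proteoglycans, was 570.2 ± 63.0 TPM, Mmp12, the macrophage elastase, 555, 518, 466, 563 and 551 TPM in controls 1 to 5, and Serpinh1, the collagen chaperone HSP47, 489 ± 19.3 TPM. Mmp14 was 431 ± 30.9 TPM, Mmp13 61.7 ± 6.59 TPM and Mmp3 42.8 ± 4.51 TPM, whereas Mmp2, a gelatinase of activated stellate cells, was 14.98 ± 2.47 TPM. Timp3 (348 ± 37.2 TPM) lay above Timp1 (78.3 ± 5.86 TPM) and Timp2 (30.1 ± 7.36 TPM) without overlap.

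Of 23 complement and innate secreted proteins 22 were detected (95.7%, against 52.0% of protein-coding genes), with a median of 71.1 TPM. Serping1, the C1 inhibitor, was 414 ± 33.1 TPM, Hp, haptoglobin, 243, 288, 338, 372 and 306 TPM in controls 1 to 5, Masp1, a lectin pathway protease, 253 ± 16.1 TPM and Clu, clusterin, 227 ± 29.4 TPM. Serping1 and Hp did not overlap. Hp is a plasma protein of hepatocytes, and the part of hepatocyte RNA in its level was not tested.

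Immediate-early and stress genes, which cells switch on within minutes of a stimulus or of tissue dissociation, were present throughout. All 34 genes of the list were detected in all 5 control libraries, against 52.0% of protein-coding genes. Of the 34, 31 lay above the median of detected genes, and the list median was 73.1 TPM. Ier3, an early survival gene, was 898, 998, 1042, 994 and 962 TPM in controls 1 to 5, and Gadd45a, a growth arrest gene, 937, 912, 865, 805 and 856 TPM. These overlapped, and both lay above Junb (445 ± 46.2 TPM), Fosl1 (432 ± 48.1 TPM) and Dusp1, a phosphatase that ends MAP kinase signals (430.2 ± 32.3 TPM). Myc was 347 ± 36.8 TPM.

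Among the Fos genes of the AP-1 family Fosl1 and Fosl2 stood above Fos and Fosb. Fosl1 and Fosl2 were 432 and 202 TPM on average, whereas Fos was 73.5, 64.0, 63.6, 54.3 and 60.6 TPM in controls 1 to 5 and Fosb 32.5 ± 1.62 TPM. The ranges of Fosl1, Fosl2, Fos and Fosb did not overlap, in that order. Atf3, a stress factor, was 143 ± 13.7 TPM, Egr1 123 ± 9.52 TPM and Nr4a1 57.9 ± 10.6 TPM. The heat shock genes Hspa1a and Hspa1b, a near-identical pair between which reads are uncertain, were 23.7 ± 5.14 and 34.4 ± 6.84 TPM. Controls 3 and 4 were both above the other libraries for 14 of 34 genes and both below for 5. The shares over all detected genes were 15.4 and 27.3%. Where the longest transcript had at most 1000 bases they were 30.4 and 10.8%. The part of transcript length in the counts for this list was not tested.

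Antioxidant, iron and metal response genes, some of them targets of the oxidative stress factor Nrf2, had the highest median of the lists outside the mitochondrial genome. This list was drawn up after the values of the highest genes had been seen, so its place among the lists was not independent of those values. All 28 genes were detected, against 52.0% of protein-coding genes, with a median of 849 TPM and 13 of them at a mean of at least 1000 TPM. Beyond the genes named above, Srxn1, sulfiredoxin, was 2362 ± 179 TPM, Txnrd1, thioredoxin reductase, 1275 ± 142 TPM and Gclm, of glutathione synthesis, 1072 ± 49.2 TPM. Slc7a11, the cystine transporter, was the lowest at 22.5 ± 3.88 TPM, while its partner Slc3a2 was 1370.3 ± 38.8 TPM. Class I antigen presentation, also listed after the values were seen, had 9 of 9 genes detected, with H2-D1 at 2884 ± 104 TPM and the transporter gene Tap1 at 34.5 ± 4.22 TPM.

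Genes of the myofibroblast programme ranged widely. Of 33 genes 30 were detected (90.9%, against 52.0% of protein-coding genes), with a median of 52.0 TPM. Tpm1, a tropomyosin, was 831, 836, 756, 714 and 802 TPM in controls 1 to 5, Vim, vimentin, 692, 676, 857, 728 and 657 TPM and Tagln2 450.2 ± 16.9 TPM. Acta2, the smooth muscle actin that defines myofibroblasts, was 17.5, 20.5, 22.6, 22.3 and 19.2 TPM, a mean of 20.4 ± 2.12 TPM at rank 6254. Acta2 thus lay below the median of detected protein-coding genes (23.4 TPM) in 5 of 5 libraries. The stellate marker Lrat, at 14.1 ± 1.82 TPM, did so too. Tagln, another early smooth muscle gene, was 162 ± 6.56 TPM, higher than Acta2 with no overlap.

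Lmod1, Cnn1 and Actg2, genes of mature smooth muscle, were not detected, with values of 0.0291 to 0.0778, 0 to 1.27 and 0.426 to 1.02 TPM. Thbs1, thrombospondin 1, was 189.7 ± 24.6 TPM, Ccn2 133 ± 20.5 TPM, Spp1, osteopontin, 52.0 ± 4.11 TPM and Lox, which crosslinks collagen, 2.54 ± 0.421 TPM. Proliferation genes were low but above the threshold of 1 TPM, with Mki67 at 1.34, 1.10, 1.38, 1.201 and 1.54 TPM in controls 1 to 5. Top2a was 2.69 ± 0.311 TPM and Ccnd1, cyclin D1, 2.57 ± 0.274 TPM.

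Of 37 transcription factor genes of liver mesenchyme 31 were detected (83.8%, against 52.0% of protein-coding genes). Cebpb, of the acute phase response (232 ± 21.1 TPM), Ets2 (225 ± 29.5 TPM), Mef2d (223 ± 47.2 TPM), Ets1 (187 ± 20.04 TPM), Zeb2 (184 ± 23.7 TPM) and Tcf4 (126 ± 9.91 TPM) were the highest, and only Tcf4 was separate from the gene before it. Pparg, which keeps stellate cells quiescent, was 3.67, 4.47, 2.25, 4.89 and 3.19 TPM in controls 1 to 5, under the median of detected genes in all of them.

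Transcripts of other liver cells were present in all 5 control libraries. Endothelial markers had the highest sum of the lists of other cells, 4955 to 5568 TPM, with 17 of 17 detected. For this and the lists below, the share of all protein-coding genes detected was 52.0%. The 34 stellate genes summed to 14157 to 14894 TPM, 77.1% of it in the 3 highest. The lists differ in length, and by the median of their genes the order was hepatocytes (124 TPM), endothelial cells (105 TPM) and stellate identity (48.0 TPM). Cdh5, the VE-cadherin gene, was 1397, 1208, 1255, 1274 and 1161 TPM in controls 1 to 5 at rank 90, and exceeded Reln by 2.88 to 3.34 times. Egfl7 was 966 ± 59.8 TPM, and the sinusoidal scavenger and lectin genes Fcgr2b, Lyve1, Stab1, Clec4g and Stab2 were 865 ± 75.3, 783 ± 37.0, 264 ± 28.6, 217 ± 7.31 and 68.2 ± 9.13 TPM. Pecam1 was 284 ± 11.1 TPM. Vwf, typical of larger vessels, was 2.10 ± 0.618 TPM, and Kdr was 0.185 to 0.220 times Flt4. The labels name no sort, and no share of cells was computed from these sums.

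Hepatocyte markers summed to 2483, 2679.6, 3683, 3295 and 2869 TPM in controls 1 to 5, so that they were highest in controls 3 and 4. Of 18 markers 17 were detected. Alb, albumin, was 442, 444, 792, 582 and 503 TPM, Apoa2, an apolipoprotein, 360.4, 467, 666, 649 and 504 TPM and Trf, transferrin, 363 ± 40.6 TPM. Controls 3 and 4 were both above the other libraries for 9 of 17 detected markers and both below for 0. Among all detected genes this held for 15.4 and 27.3%, and for 30.4 and 10.8% where the longest transcript had at most 1000 bases. The part of transcript length in the counts for hepatocyte markers was not tested. Hnf4a, the hepatocyte transcription factor, was 9.71 ± 0.675 TPM and G6pc, which was not detected in every library, 1.04 ± 0.844 TPM.

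Macrophage markers, 15 of 17 detected, summed to 1047 to 1170 TPM. Cd68 was 204 ± 24.6 TPM and Cd5l, a protein of Kupffer cells, 199 ± 9.96 TPM. Clec4f, which defines Kupffer cells, was 51.1, 40.5, 23.7, 31.8 and 39.4 TPM in controls 1 to 5 and Adgre1, the F4/80 gene, 12.1, 12.3, 11.6, 11.1 and 12.4 TPM. Clec4f varied more than Adgre1. Ccr2 and Ly6c2, of recruited monocytes, were not detected, with Ccr2 at 0.125 to 0.416 TPM and Ly6c2 at 0.0782, 0.0877, 2.94, 0 and 0.0890 TPM in controls 1 to 5. The dendritic cell list summed to 628 to 770 TPM with 4 of 8 detected. That sum rested on Cd74 (521 ± 59.2 TPM) and H2-Ab1 (118 ± 11.7 TPM), which all antigen-presenting cells make, and Clec9a (52.3 ± 13.6 TPM), while Flt3 and Xcr1 were at 0 to 0.0639 and 0 to 0.153 TPM.

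The list of vascular smooth muscle and pericytes summed to 302 to 346 TPM with 6 of 11 detected, and 90.6% of it lay in Kcnj8 (159 ± 6.56 TPM), Abcc9 (108 ± 14.9 TPM) and Mylk (19.5 ± 1.02 TPM). Kcnj8 and Abcc9 encode the vascular ATP-sensitive potassium channel of pericytes. Myh11, which defines smooth muscle, was 5.80, 5.75, 5.61, 5.47 and 5.70 TPM in controls 1 to 5, and Notch3 and Cspg4 were not detected (0.341 to 0.907 and 0 to 0.0507 TPM).

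Most markers of the remaining cell types lay near or under the threshold of 1 TPM. Portal fibroblast genes summed to 17.6 to 23.6 TPM with 4 of 11 detected, led by Thy1 (8.22 ± 0.696 TPM, but 0.231 TPM in coding transcripts alone), and Eln, elastin, was 1.56, 1.24, 1.44, 2.62 and 1.27 TPM in controls 1 to 5 (mean 0.789 TPM in coding transcripts alone, against 1.62 TPM). Of 9 cholangiocyte markers only Spp1, which other cells make too, was detected, and Krt19 was 0.696 to 3.57 TPM, with control 2 the highest, and Epcam 0.154 to 1.40 TPM. None of 8 mesothelial markers, 1 of 9 neutrophil markers (Csf3r, 5.23 ± 2.22 TPM, 3.32 TPM in coding transcripts alone) and 1 of 15 lymphocyte markers (Cd79b, 3.75 ± 1.65 TPM) was detected in every library. Leaving out control 1 raised the neutrophil count to 2, leaving out control 4 the mesothelial count to 1, and leaving out controls 3 and 4 together the lymphocyte count to 2. Retnlg had 0 counts in all 5 libraries, which allows up to 0.706 to 1.10 TPM, and so did Ncr1, which allows up to 0.223 to 0.355 TPM. Erythroid genes summed to 10.7 to 24.0 TPM, with control 5 the lowest.

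**Figure D5:**
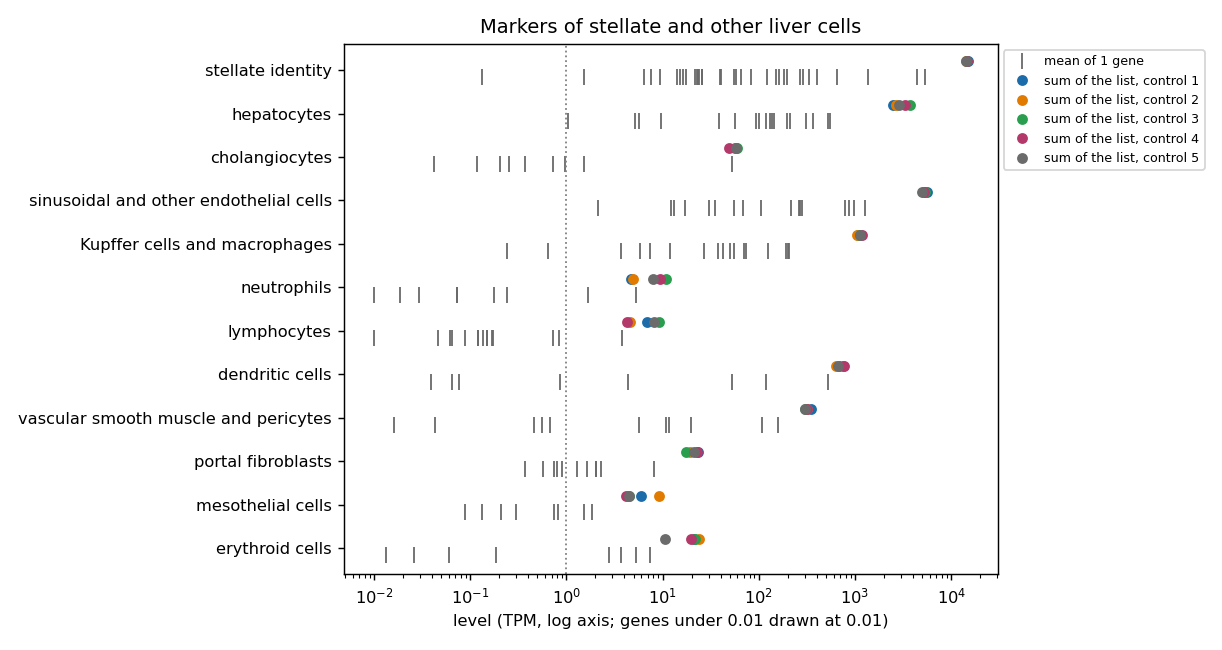
For the stellate list and 11 lists of other cells, the sum of TPM in each control library (points) and the mean of each gene (ticks), on a log axis; the dotted line is 1 TPM. The endothelial sum, 4955 to 5568 TPM, is the highest of the other cells and the mesothelial sum, 4.19 to 9.06 TPM, one of the lowest, and the hepatocyte points spread from 2483 to 3683 TPM.

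The genes that varied most between the libraries, among protein-coding genes with a mean of at least 10 TPM, are 10 by rule, and none of them is in the stellate identity list. Mup10 (6.68, 8.23, 0.716, 57.7 and 9.74 TPM in controls 1 to 5) and Mup2 (9.31, 23.2, 129.8, 20.8 and 24.3 TPM) are urinary proteins of hepatocytes, each high in a single library, and are uncertain for the same reason as Mup19. Lars2, a mitochondrial leucyl-tRNA synthetase gene, was 401, 73.1, 83.2, 72.1 and 68.6 TPM, with control 1 far above the rest, and 14.6 TPM in coding transcripts alone. Rps27rt, a ribosomal protein retrogene, was 7.97, 15.6, 328, 288 and 65.0 TPM, Dusp23, a phosphatase gene, 11.6, 9.56, 78.2, 64.1 and 19.5 TPM and mt-Nd3, of respiratory complex I, 152, 177, 566, 718 and 213 TPM. In these 3, as in Grip2, controls 3 and 4 were above the other libraries. Cplane1, of primary cilia, was 8.46, 5.39, 32.3, 5.13 and 27.0 TPM, and S100a6, a calcium-binding protein of activated stellate cells, 6.13, 25.2, 13.1, 4.55 and 6.37 TPM, with control 2 the highest. Scgb1a1, a secretoglobin of airway cells, was 117, 0.366, 1.005, 116 and 0 TPM, so it was high in controls 1 and 4 and near 0 in the others. Without the libraries that stood out, the means were 6.34 TPM for Mup10 (without control 4), 19.4 TPM for Mup2 (without control 3), 74.3 TPM for Lars2 (without control 1), and, without controls 3 and 4, 29.5 TPM for Rps27rt, 13.5 TPM for Dusp23 and 181 TPM for mt-Nd3. The mean of Scgb1a1 was 29.4 TPM without control 1 and 29.7 TPM without control 4, against 47.0 TPM over all 5.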

How the data were processed

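Poly-A RNA of 5 control libraries was used. For each of 118489 transcripts the authors deposited an estimated count, which can be fractional, and a TPM value, per the file headers. The deposited TPM are reads per effective transcript length, scaled to the same total in every library. Tools listed, without roles, in the submitters' processing notes are bcl2fastq 2.19, kallisto 0.44.0 and DESeq2, beside the genome build GRCm38.p6. No source used here gives the transcript set or the strand setting. Reads that match several transcripts are divided among them by kallisto's estimate, so near-identical paralogs, overlapping genes and antisense genes are uncertain, and the TPM of a very short transcript depends on its effective length.

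Transcripts were joined to genes through GENCODE M21 of GRCm38 (116816 matched; the 1673 others held 2.49 to 2.68% of TPM and were left out), and TPM were summed per gene, without rescaling, with Python 3.11.15, pandas 2.3.3 and numpy 2.4.6. Promoters came from RefSeq and were matched by symbol. The summing, ranking and counting steps were checked on simulated data. The total of 10125184 to 17566891 estimated counts per library sets the precision, and limits from 3 counts cover counting error only.

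Groups came from the labels. The genes and lists were chosen with earlier results of these data known. By rule the text names the 5 markers, the 20 highest protein-coding genes outside the mitochondrial genome, the 6 highest members of each of 27 lists, any member of the stellate, receptor kinase and other-cell lists, and the 10 most variable protein-coding genes with a mean of at least 10 TPM, leaving out predicted genes and pseudogenes. Any other gene and 2 further lists were picked with their values in view. The alternatives were other thresholds, averages and scalings, coding transcripts alone, and libraries left out. Several genes that the rule names are counted in their lists but not reported by name here.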

Additional observations from a re-analysis of the deposited data

Results flagged for a closer look

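Each value was checked for a single library that lay far from the other 4 by Dixon's test. Of 305 values (genes named, list sums and library measures) 26 were picked out, 8.52%, and chance alone picks out about 1 in 20 groups. The values include the 10 most variable genes and genes picked with their values in view, and all come from the same 5 libraries. The comparison therefore cannot tell whether more were picked out than chance gives. The causes were not tested. Control 1 lay above the other libraries for Ephb4 (36.4 TPM against 30.3 to 31.9 TPM), Igf1r (13.3 TPM against 9.25 to 10.3 TPM), Lamc1 (228 TPM against 183 to 193 TPM) and Lars2 (401 TPM against 68.6 to 83.2 TPM). Control 1 likewise lay above the other libraries for Lmod1 (0.0778 TPM against 0.0291 to 0.0416 TPM), Reln (485 TPM against 376 to 388 TPM), Sftpa1 (2.06 TPM against 0 to 0.434 TPM) and Stab2 (84.4 TPM against 62.4 to 65.5 TPM). Control 2 lay above the other libraries for Ccl20 (0.369 TPM against 0 TPM in each) and Krt19 (3.57 TPM against 0.696 to 1.21 TPM). Control 2 lay below the other libraries for Eef1a1 (6634 TPM against 6731 to 6769 TPM). Control 3 lay above the other libraries for Clec4g (229.9 TPM against 211 to 216 TPM), Cnr2 (9.95 TPM against 7.51 to 8.17 TPM), Hand2 (7.34 TPM against 6.11 to 6.41 TPM) and Il12b (1.04 TPM against 0.174 to 0.348 TPM). Control 3 likewise lay above the other libraries for Ly6c2 (2.94 TPM against 0 to 0.0890 TPM), Mup2 (129.8 TPM against 9.31 to 24.3 TPM), Rxrg (0.327 TPM against 0.114 to 0.154 TPM) and Sparc (538 TPM against 476 to 486 TPM). Control 3 likewise lay above the other libraries for Trf (434 TPM against 335 to 360.0 TPM). Control 4 lay above the other libraries for Eln (2.62 TPM against 1.24 to 1.56 TPM), Gfap (0.416 TPM against 0.0396 to 0.0919 TPM), Mup10 (57.7 TPM against 0.716 to 9.74 TPM) and Pdgfb (3.67 TPM against 1.68 to 2.194 TPM). Control 4 likewise lay above the other libraries for Stra6 (2.59 TPM against 0.489 to 0.819 TPM). Control 4 lay below the other libraries for Lpar6 (89.0 TPM against 96.5 to 98.8 TPM).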

How the results depend on the processing

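The count of detected genes, 11754, was 12608 at 0.5 TPM and 9235 at 5 TPM, and stayed within 1.5 times under every alternative run. The share of TPM in the 100 highest genes was 27.7% without the mitochondrial genome, 35.9% over coding transcripts alone, 32.9% with unmatched transcripts kept as genes and 19.1% on estimated counts per effective kilobase and total counts, a unit with no fixed total whose levels were 0.613 times the TPM in the median of the genes named. On that unit the lists summed to 1847 (hepatocytes), 34.5 (cholangiocytes), 3214 (endothelial), 678 (macrophages), 4.64 (neutrophils), 4.04 (lymphocytes), 427 (dendritic), 194 (smooth muscle and pericytes), 12.8 (portal fibroblasts), 3.45 (mesothelial) and 11.9 (erythroid), and 1 portal fibroblast marker was detected. Over coding transcripts alone, which raised the median named gene 1.24 times, the sums were 3611, 69.5, 1354, 873, 392 and 12.8 TPM for hepatocytes, cholangiocytes, macrophages, dendritic cells, smooth muscle and pericytes, and portal fibroblasts. Without the mitochondrial genome they were 5611, 1182 and 339 TPM for endothelial cells, macrophages, and smooth muscle and pericytes. Only lists of scarce cells changed their count of detected markers by over 1.5 times. At 0.5 TPM it was 3 for cholangiocytes, 7 for portal fibroblasts and 3 for mesothelial cells. At 5 TPM it was 0 for neutrophils, lymphocytes and erythroid cells and 1 for portal fibroblasts. By the mean of the libraries it was 2 for cholangiocytes, neutrophils and mesothelial cells. For mesothelial cells it was 1 without the mitochondrial genome, over coding transcripts and without controls 3 and 4, and for lymphocytes 2 without controls 3 and 4. With 1 library left out at a time, the neutrophil count was 1 to 2 and the mesothelial count 0 to 1.

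Of 263 named genes with a level above 0, 11 moved by over 1.5 times over coding transcripts alone, 20 by the median of the libraries, 7 and 13 by the geometric mean with 1 or 0.1 TPM added, 13 without controls 3 and 4 and at most 5 with any single library left out. Grip2 had a mean of 1811 TPM without control 3. No paired analysis was possible because a single group was described and no groups were compared. Depth limits what can be said of genes under 1 TPM, which rested on few counts.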

Other observations

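Some of the most abundant transcripts belong to no list used above, and the genes named here were chosen after their values were seen. Igfbp7, a secreted binding protein of vessels and stroma, was 1921, 2002, 2119.8, 2072 and 1976 TPM in controls 1 to 5, at rank 46. Its values stayed within a narrow band. Igfbp3, which binds insulin-like growth factors, was 124 ± 8.34 TPM. Odc1, the first enzyme of polyamine synthesis, was 1106 ± 104 TPM and Srgn, a proteoglycan of secretory granules in blood and endothelial cells, 1096 ± 113 TPM. Vcam1, an adhesion molecule for leukocytes, was 679.9 ± 44.7 TPM. Procr, the endothelial protein C receptor, was 3884, 4122, 3797, 3430.1 and 3977 TPM at rank 26, and Plvap, of the endothelial diaphragm, was 809.9, 758, 1065, 945 and 759 TPM. Plvap was highest in controls 3 and 4, as the hepatocyte markers were.

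The 13 protein-coding genes of the mitochondrial genome held 58515 to 71177 TPM together. mt-Co1, of cytochrome oxidase, led at 10296 ± 531 TPM and was followed by mt-Atp8 at 9853 ± 1287 TPM. For mt-Co2 the values were 4097, 3669, 7068, 7726 and 6159 TPM in controls 1 to 5, and controls 3 and 4 were the highest, as for mt-Nd3. For 9 of the 13 genes controls 3 and 4 were the lowest, against 27.3% of all detected genes, a share that moved with transcript length. mt-Nd6, the gene on the light strand, was 28.1 ± 10.5 TPM.

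Genes of airway and lung epithelium moved with Scgb1a1. In controls 1 to 5 the surfactant gene Sftpc was 9.71, 0, 0.296, 4.99 and 0.183 TPM, the surfactant gene Sftpa1 2.06, 0, 0.0585, 0.434 and 0.167 TPM and the secretoglobin gene Scgb3a2 1.31, 0, 0, 0.781 and 0 TPM. All 3 were highest in control 1 and next in control 4, the libraries with over 100 TPM of Scgb1a1. Where these transcripts came from was not tested.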
